A study of Mus musculus with 6 samples.

Results

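The genes described here carry out or accompany salt reabsorption in the loop of Henle, the distal convoluted tubule and the collecting duct of the kidney. They are Umod, Slc12a1, Slc12a3, Kcnj1, Kcnj16, Bsnd, Scnn1a and Scnn1b, and they were taken by name because each has a row in the deposited table of normalized counts. All 8 are among the 12125 genes listed there, and all 8 passed the filter on low values, which 9966 genes passed. The table holds RNA-seq libraries of 3 Trf1+/+ and 3 Trf1flox/flox mice, made from sorted kidney cells that the labels call fibroblasts.

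Both groups of mice carried Cre-ERT2 under the Col1a2 promoter and the KFP allele, a red fluorescent reporter that Cre switches on by removing a stop cassette. The Trf1flox/flox mice also carried floxed alleles of Trf1, the shelterin gene named Terf1 in the table. Tamoxifen was injected in both groups 3 times a week for 8 weeks, starting in male and female mice aged 6 to 8 weeks. For each library 500 kidney cells were sorted on CD29, a surface integrin, and on KFP, and the study's text does not say whether the sequenced cells carried both markers. The replicate numbers used here name the libraries of a group in accession order and pair no mice. The comparison asks how the labelled deletion of Trf1 changes the RNA of the sorted cells.

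The salt transport genes work in sequence along the nephron. In the thick ascending limb, NKCC2 takes up sodium, potassium and chloride from the urine, ROMK returns potassium to the lumen, and chloride leaves on the blood side through channels that contain barttin. In the distal convoluted tubule NCC takes up sodium with chloride, and the WNK kinases set its activity. In the late distal tubule and the collecting duct the epithelial sodium channel ENaC takes up sodium under the control of aldosterone. These genes are textbook markers of tubule epithelium and not of fibroblasts.

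The libraries held 10263382 to 12248797 reads on the listed genes, and 1 read was worth between 0.689 and 1.09 normalized counts. Terf1 had 0.891, 253 and 235 normalized counts in Trf1+/+ replicates 1, 2 and 3, against 110.0, 7.65 and 12.4 in Trf1flox/flox replicates 1, 2 and 3. Trf1+/+ replicate 1 is written here as the library labelled so, since it held a single Terf1 read. It also stood apart with 8967 genes above 0 and a median of 13.4 normalized counts, against medians of 118 to 148 in the other 5. Low genes may be missed in such a library, so the single read does not settle its genotype. Nor do the 110.0 normalized counts of Trf1flox/flox replicate 1 settle the genotype of that library. Log2 fold changes are given throughout as Trf1flox/flox against Trf1+/+ with their standard error (SE), and that of Terf1 was -1.04 (SE 2.63, adjusted p = 0.985 from limma). All groups are used as labelled.

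The listed markers of the labelled cell type were low. Of 14 fibroblast and mural markers Col1a2, Dcn and Cspg4 had a row in the table and the other 11 were not analysed here. Whether genes were filtered out before the table was made is not given in the sources used here, so the number with a row is no measure of expression. The summed level of these 3 ran from 1.66 to 132 normalized counts in the Trf1+/+ libraries and from 117 to 175 in the Trf1flox/flox libraries. Col1a2, whose promoter drives Cre in these mice, had at most 1.78 normalized counts in any library, which is at most 2 reads. Of 10 endothelial markers 1 was listed, of 5 podocyte markers none, and of 10 immune markers 5. Tubule markers were abundant beside this: the 14 proximal tubule markers summed to between 28770 and 157709 normalized counts, and the 10 thick ascending limb markers to between 40201 and 86213. Red blood cell genes summed to between 121 and 52403 normalized counts, with the highest sum in Trf1flox/flox replicate 3. The table does not show from which cells of the sort the reads of the salt transport genes came.

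The 8 salt transport genes together took 0.573% to 1.55% of the normalized counts of a library. Umod ranked between 11 and 27 among all listed genes, and Slc12a3 between 18 and 39. Per kilobase of the principal transcript in GENCODE, Umod had the highest level in both groups, with 14323 ± 4712 (SD, n = 3) normalized counts per kb in Trf1+/+ and 17490 ± 11773 (SD, n = 3) in Trf1flox/flox libraries. Slc12a3 followed with 8825 ± 1564 and 5151 ± 725 normalized counts per kb. Kcnj1 had 2220 ± 561 and 2044 ± 1164, and Slc12a1 had 1462 ± 1029 and 3130 ± 2401, so that these neighbours in the order did not differ beyond their spread. Kcnj16 had 589 ± 47.3 and 754 ± 305, and its range lay wholly above that of Bsnd, with 194 ± 147 and 195 ± 96.3. Scnn1a, with 168 ± 128 and 174 ± 37.2, could not be ordered against Bsnd, and Scnn1b was lowest with 27.9 ± 48.1 and 26.7 ± 24.8. When all exons of the gene were used as the length, Slc12a3 dropped to 2618 ± 464 normalized counts per kb in Trf1+/+ and 1528 ± 215 in Trf1flox/flox libraries. This is because its exons cover 11.1 kb while its principal transcript has 3.30 kb. In the Trf1flox/flox libraries its mean then lay below that of Slc12a1, at 2521 ± 1934, but the ranges of the 2 genes overlapped.

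The promoters of Umod, Slc12a3 and Kcnj16 are shown next. Umod had the highest level, Slc12a3 was the one member whose groups did not overlap, and Kcnj16 is shown because its window held both motifs searched. Each sequence is the 250 bases before the transcription start in RefSeq on GRCm38.p6, read in the direction of the gene, and 6 of the 8 genes matched an entry. Capitals mark GTTAAT, a half-site of the tubule factor HNF1, and AAGGTCA, a half-site bound by nuclear receptors such as the estrogen-related receptors, each searched on both strands. The Umod window lies at chr7:119479263-119479512 on the minus strand, the Slc12a3 window at chr8:94328958-94329207 on the plus strand, and the Kcnj16 window at chr11:110967783-110968032 on the plus strand.
Umod: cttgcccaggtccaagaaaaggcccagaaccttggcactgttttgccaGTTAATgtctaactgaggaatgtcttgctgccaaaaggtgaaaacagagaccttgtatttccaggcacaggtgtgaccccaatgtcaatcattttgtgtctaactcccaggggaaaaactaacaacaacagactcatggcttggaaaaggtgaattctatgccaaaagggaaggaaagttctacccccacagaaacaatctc
Slc12a3: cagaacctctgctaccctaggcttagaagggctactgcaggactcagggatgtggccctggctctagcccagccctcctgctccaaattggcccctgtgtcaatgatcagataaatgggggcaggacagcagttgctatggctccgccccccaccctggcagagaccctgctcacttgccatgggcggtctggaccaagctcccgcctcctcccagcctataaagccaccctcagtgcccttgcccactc
Kcnj16: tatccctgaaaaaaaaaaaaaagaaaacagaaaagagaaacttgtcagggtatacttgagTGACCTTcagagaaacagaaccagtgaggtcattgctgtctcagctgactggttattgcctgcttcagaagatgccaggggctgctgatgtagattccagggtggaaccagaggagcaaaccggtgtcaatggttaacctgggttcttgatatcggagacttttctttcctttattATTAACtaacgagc
The Umod window held GTTAAT 1 time, beginning 202 bases before the start. The Kcnj16 window, the first of 4 RefSeq starts of that gene, held 1 match to each motif on the opposite strand, and the windows of its other 3 starts held none. The windows of Slc12a1, Slc12a3, Kcnj1 and Scnn1b held no match to either. Over all 32536 distinct windows, 6.47% held GTTAAT or its reverse complement and 4.09% held AAGGTCA or its reverse complement. A match describes the letters and does not show that a factor binds there, and the windows of Bsnd and Scnn1a were not used.

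Of the 8 genes, Slc12a3 was the one whose 3 Trf1flox/flox libraries all lay below the 3 Trf1+/+ libraries. None of the 8 passed an adjusted p under 0.05 in limma, and none had an unadjusted p under 0.05. Over all 9966 tested genes, 0 (0%) passed the adjusted threshold, 312 (3.13%) had an unadjusted p under 0.05 in limma, 332 (3.33%) lay wholly lower in Trf1flox/flox mice and 533 (5.35%) lay wholly higher. With 1 of 8 genes wholly lower and 0 of 8 wholly higher, the count is too small to set the members apart from that background. Positive log2 fold changes were found for 6 of the 8 and negative ones for 2, with a median of 0.37, beside a median of 0.20 and 55.9% positive over all tested genes. The median of the members was 0.022 with edgeR and 0.037 with DESeq2, where the median of all genes was -0.045 and -0.052, and it was -0.073 with sample quality weights. Leaving out the library labelled Trf1+/+ replicate 1 gave a median of 0.18. The median was -0.069 without Trf1+/+ replicate 3 and -0.022 without Trf1flox/flox replicate 1. In both of these fits Scnn1b failed the filter, so the median covers only the remaining members and equals the value of Umod and of Kcnj16. A change of sign there cannot be laid to the library left out, since the set of genes changed with it. With 3 libraries against 3, an exact two-sided permutation test cannot give a p under 0.1.

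**Figure D1:**
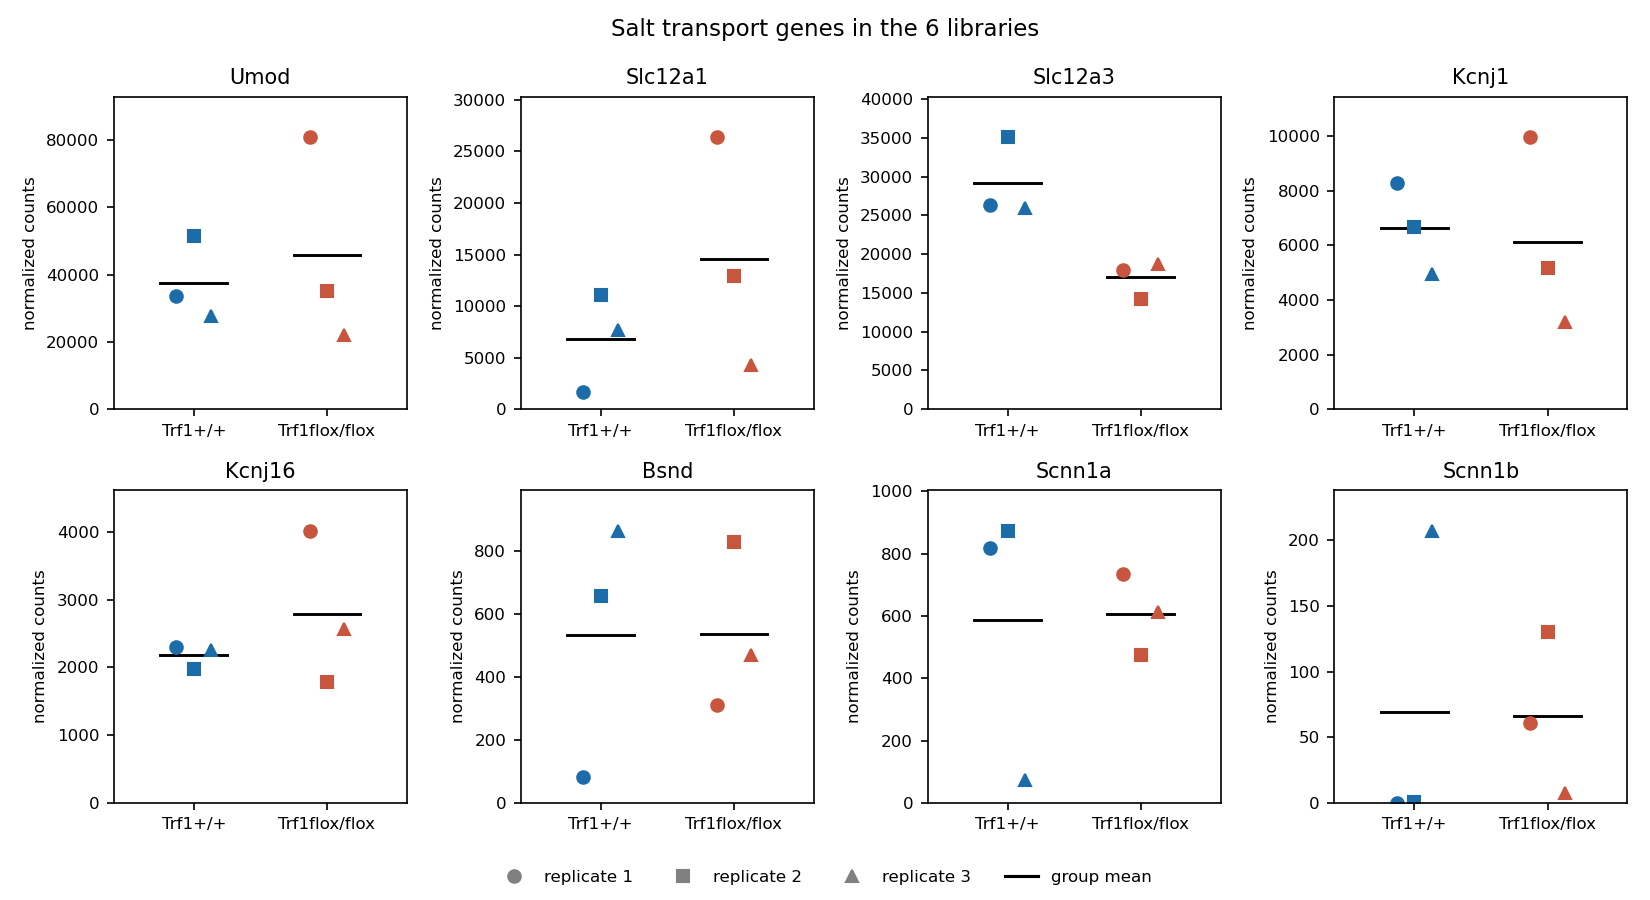
Normalized counts of each salt transport gene in the 3 Trf1+/+ libraries (blue) and the 3 Trf1flox/flox libraries (red), with the shape of a point giving the replicate and the bar the group mean. Slc12a3 is the one panel in which the red points, 14271 to 18752, all lie under the blue points, 25899 to 35066.

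Umod encodes uromodulin, the most abundant protein of normal urine and a product of the thick ascending limb (ENSMUSG00000030963, chromosome 7, 119462711 to 119479282, minus strand). It had 33502, 51495 and 27793 normalized counts in Trf1+/+ replicates 1, 2 and 3, against 80777, 35062 and 21896 in Trf1flox/flox replicates 1, 2 and 3. Both the highest and the lowest value were in the Trf1flox/flox group, and the groups overlapped. Its log2 fold change of 0.12 had a 95% interval from -0.97 to 1.22, which spans both directions. Without Trf1flox/flox replicate 1 the fold change was -0.39. An antisense gene, Gm44588, shares 298 exon bases with Umod and was not analysed here, and since the kit does not mark strand its reads could not be told from those of Umod.

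Slc12a1 encodes NKCC2, the cotransporter that loop diuretics block (ENSMUSG00000027202, chromosome 2, 125152505 to 125230002, plus strand). Its normalized counts were 1641, 11080 and 7646 in Trf1+/+ mice, against 26372, 12964 and 4250 in Trf1flox/flox mice. The 2 highest values were in Trf1flox/flox replicates 1 and 2, the lowest was in the library labelled Trf1+/+ replicate 1, and the groups overlapped. On the log2 scale the difference was 1.13 (SE 0.75, adjusted p = 0.970 from limma). Leaving out the library labelled Trf1+/+ replicate 1 gave 0.30 and leaving out Trf1flox/flox replicate 1 gave 0.52, so its size rests on these libraries. The highest library held 16.1 times the level of the lowest. The fold change stayed positive in all 15 alternatives, between 0.075 with sample quality weights and 1.84 without Trf1flox/flox replicate 3.

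Kcnj1 encodes ROMK, the potassium channel that recycles potassium for NKCC2 and secretes it further downstream (ENSMUSG00000041248, chromosome 9, 32372493 to 32399197, plus strand). It had 8284, 6672 and 4936 normalized counts in Trf1+/+ mice, against 9957, 5160 and 3196 in Trf1flox/flox mice. As for Umod, the highest and the lowest library were both Trf1flox/flox, replicates 1 and 3. Its log2 fold change was -0.24, and the 95% interval ran from -1.28 to 0.79. Among all pairs of the 8 genes, Umod and Kcnj1 had the most alike profiles over the 6 libraries, with a root-mean-square difference of 0.34 between their centred log2 values.

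Bsnd encodes barttin, an accessory subunit of basolateral chloride channels (ENSMUSG00000025418, chromosome 4, 106483456 to 106492283, minus strand). It had 81.9, 655 and 863 normalized counts in Trf1+/+ mice, against 311, 829 and 471 in Trf1flox/flox mice. The low value was in the library labelled Trf1+/+ replicate 1, where Slc12a1 was also lowest, and the other 5 libraries spanned 311 to 863. Its log2 fold change was 0.46 (SE 0.97). Leaving out the library labelled Trf1+/+ replicate 1 turned it to -0.60, so the sign rests on that library.

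The 10 other thick ascending limb markers, a list without the 8 genes, overlapped between the groups as well. All 10 were tested, 8 had a positive and 2 a negative log2 fold change, the median was 0.61, and 0 had an unadjusted p under 0.05 in limma. Their summed level overlapped between the groups, at 41238 to 86213 normalized counts in Trf1+/+ and 40201 to 82233 in Trf1flox/flox libraries. Without the library labelled Trf1+/+ replicate 1, 5 of the 9 markers still tested were negative and the median was -0.089. Trf1flox/flox replicate 1, the library with the most Umod, Slc12a1, Kcnj1 and Kcnj16, also had the highest level of Aqp2, the water channel of collecting duct principal cells, with 16844 normalized counts against at most 1144 in any other library. Fold changes without this library are given for some of the genes, and why it held these levels was not tested.

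Kcnj16 encodes Kir5.1, which pairs with Kir4.1 in the basolateral potassium channel of the distal convoluted tubule (ENSMUSG00000051497, chromosome 11, 110968033 to 111027968, plus strand). Its normalized counts were 2297, 1978 and 2262 in Trf1+/+ mice, against 4015, 1790 and 2563 in Trf1flox/flox mice. The Trf1+/+ libraries lay close together and within the range of the Trf1flox/flox libraries. The difference was 0.28 on the log2 scale, with a 95% interval from -0.73 to 1.29, and it was -0.022 without Trf1flox/flox replicate 1. Its partner Kcnj10, which encodes Kir4.1, differed by 0.22 on the log2 scale (SE 0.96).

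Slc12a3 encodes NCC, the cotransporter that thiazide diuretics block and that defines the distal convoluted tubule (ENSMUSG00000031766, chromosome 8, 94329201 to 94366214, plus strand). It had 26373, 35066 and 25899 normalized counts in Trf1+/+ replicates 1, 2 and 3, against 17956, 14271 and 18752 in Trf1flox/flox replicates 1, 2 and 3. Every Trf1flox/flox library lay below every Trf1+/+ library. The mean went from 29112 ± 5161 (SD, n = 3) in Trf1+/+ to 16993 ± 2390 (SD, n = 3) in Trf1flox/flox mice, a level 1.71-fold lower. On the log2 scale the fold change was -0.77 (SE 0.36), with a 95% interval from -1.57 to 0.024, and leaving out the library labelled Trf1+/+ replicate 1 gave -0.84. Its unadjusted p of 0.0561 and adjusted p of 0.970 from limma did not pass the threshold, and the exact permutation test gave p = 0.1, the smallest it can give. Relative to the median of all tested genes the difference was -0.97. In bulk libraries, fewer cells of a type and less RNA per cell cannot be told apart.

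**Figure D2:**
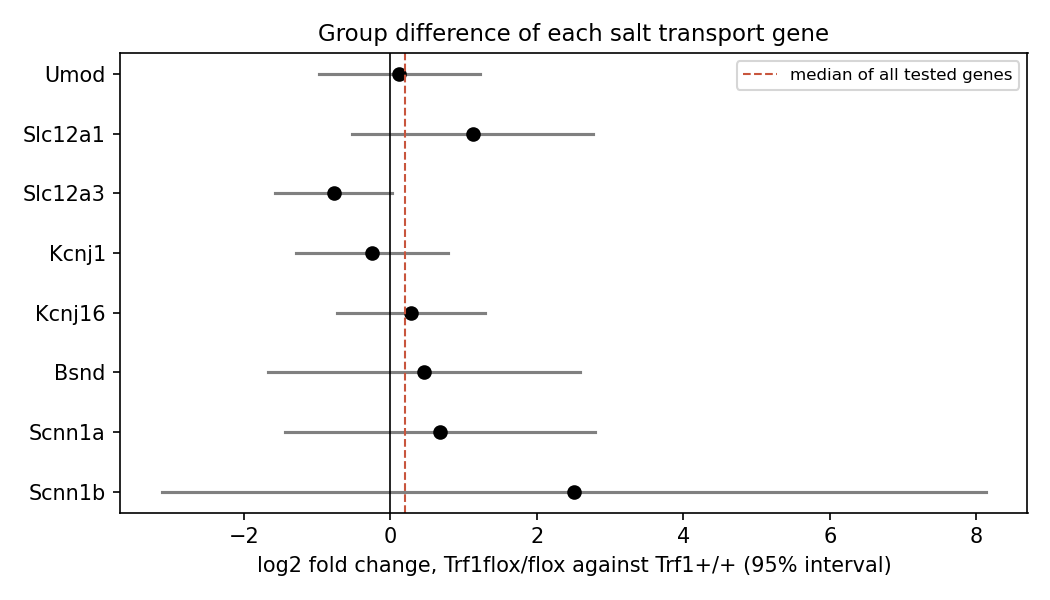
Log2 fold change of each salt transport gene, Trf1flox/flox against Trf1+/+, from limma (point) with its 95% interval (bar), beside 0 (solid line) and the median of all tested genes at 0.20 (dashed line). The interval of every gene crosses 0, and that of Slc12a3, from -1.57 to 0.024, does so by the least.

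With the authors' size factors, Slc12a3 also varied least among the 8 within the groups. Its pooled within-group SD was 0.23 on the log2 scale. Only 0.532% of the tested genes had an SD that small or smaller, while the median gene had 2.17. This small spread depended on the scaling. After upper-quartile scaling Slc12a3 ran from 15222 to 38727 in the Trf1+/+ and from 12472 to 25988 in the Trf1flox/flox libraries. With the authors' size factors the other 7 had pooled SDs between 0.42 for Kcnj16 and 3.31 for Scnn1b. The separation of the Slc12a3 groups depended on how the libraries were scaled. It held with the authors' size factors and with the TMM factors of edgeR. When each library was scaled to the same total of reads (CPM), Trf1flox/flox replicate 3 had 2651 CPM and exceeded the Trf1+/+ libraries at 2417 and 2559 CPM, and after upper-quartile scaling the library labelled Trf1+/+ replicate 1, at 15222, fell between the Trf1flox/flox libraries. Its log2 fold change was negative in all 15 alternatives, from -0.85 to -0.49, with unadjusted p-values from 0.0193 to 0.329 and adjusted p-values from 0.680 to 1.000.

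**Figure D3:**
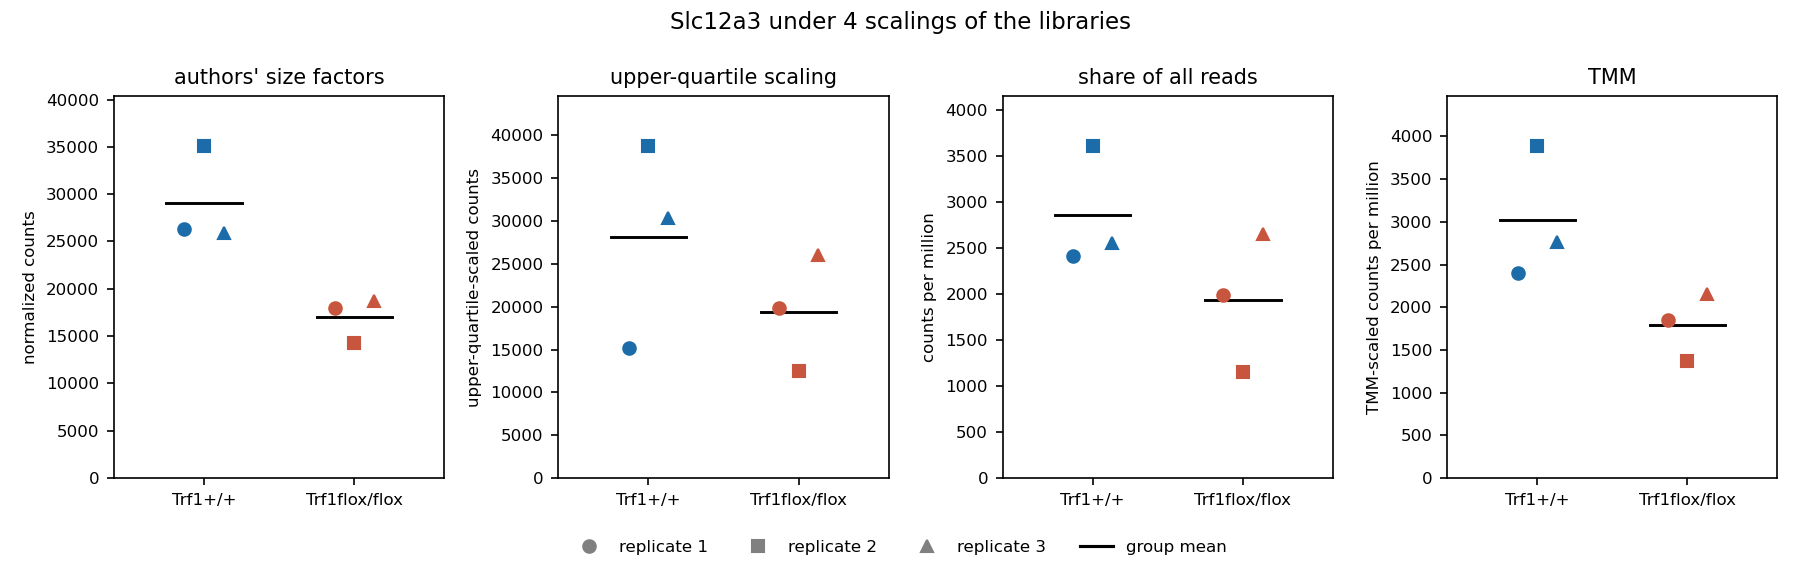
Slc12a3 in each library under 4 scalings, each on its own linear axis from 0, with the shape of a point giving the replicate and the bar the group mean. The groups are apart with the authors' size factors and with TMM, and overlap after upper-quartile scaling and as CPM.

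The other markers of the distal convoluted tubule were mostly lower in the same libraries. Of 10 such markers, a list that does not hold Slc12a3, 9 had a negative and 1 a positive log2 fold change, with a median of -0.88 beside 0.20 for all tested genes, and 2 had an unadjusted p under 0.05 in limma while 0 passed after adjustment. Leaving out the library labelled Trf1+/+ replicate 1 left 0 of the 10 under an unadjusted p of 0.05 in limma, and so did leaving out Trf1flox/flox replicate 2, scaling to CPM and the fit without a trend. The median was -0.47 without Trf1flox/flox replicate 2. Calb1, which encodes the calcium buffer calbindin, had 27371, 16530 and 11368 normalized counts in Trf1+/+ mice, against 11124, 1341 and 7907 in Trf1flox/flox mice, a log2 difference of -1.82 (SE 0.69). Trf1flox/flox replicate 2 was by far the lowest, and without it the difference was -0.88. Tmem52b had 29642, 19567 and 15794 against 12289, 8655 and 9141, a log2 difference of -1.08 (SE 0.39). Emx1, a homeobox gene, was the third marker whose groups did not overlap, with 918 to 1083 against 495 to 828 normalized counts. The 3 of 10 markers that lay wholly lower stand beside 3.33% of all tested genes. Tmem52b stayed apart under all 4 scalings, Calb1 overlapped in CPM, and Emx1 overlapped under each of the other 3.

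The summed level of the 10 markers was 68842, 52663 and 36476 normalized counts in Trf1+/+ replicates 1, 2 and 3, and 31306, 16117 and 25316 in Trf1flox/flox replicates 1, 2 and 3. These sums did not overlap, and they stayed apart under upper-quartile scaling, with TMM factors and, by a narrow gap of 3604 against 3579, in CPM. Calb1 and Tmem52b made up most of the sum in every library, so the sum mainly repeats these genes and does not show agreement of all 10. The count of negative markers was between 6 and 10 of 10 over the 15 alternatives, lowest without Trf1+/+ replicate 2, and 10 of 10 without the library labelled Trf1+/+ replicate 1. The next 2 measures are ratios within a library, and so free of its scaling, and were added after the values were seen. Slc12a3 as a percentage of the marker sum was 38.3, 66.6 and 71.0 in Trf1+/+ and 57.4, 88.5 and 74.1 in Trf1flox/flox libraries, and these overlapped. The ratio of the distal convoluted tubule sum to the thick ascending limb sum was 0.95, 0.61 and 0.88 in Trf1+/+ and 0.38, 0.27 and 0.63 in Trf1flox/flox libraries, so that Trf1flox/flox replicate 3 reached just above Trf1+/+ replicate 2.

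**Figure D4:**
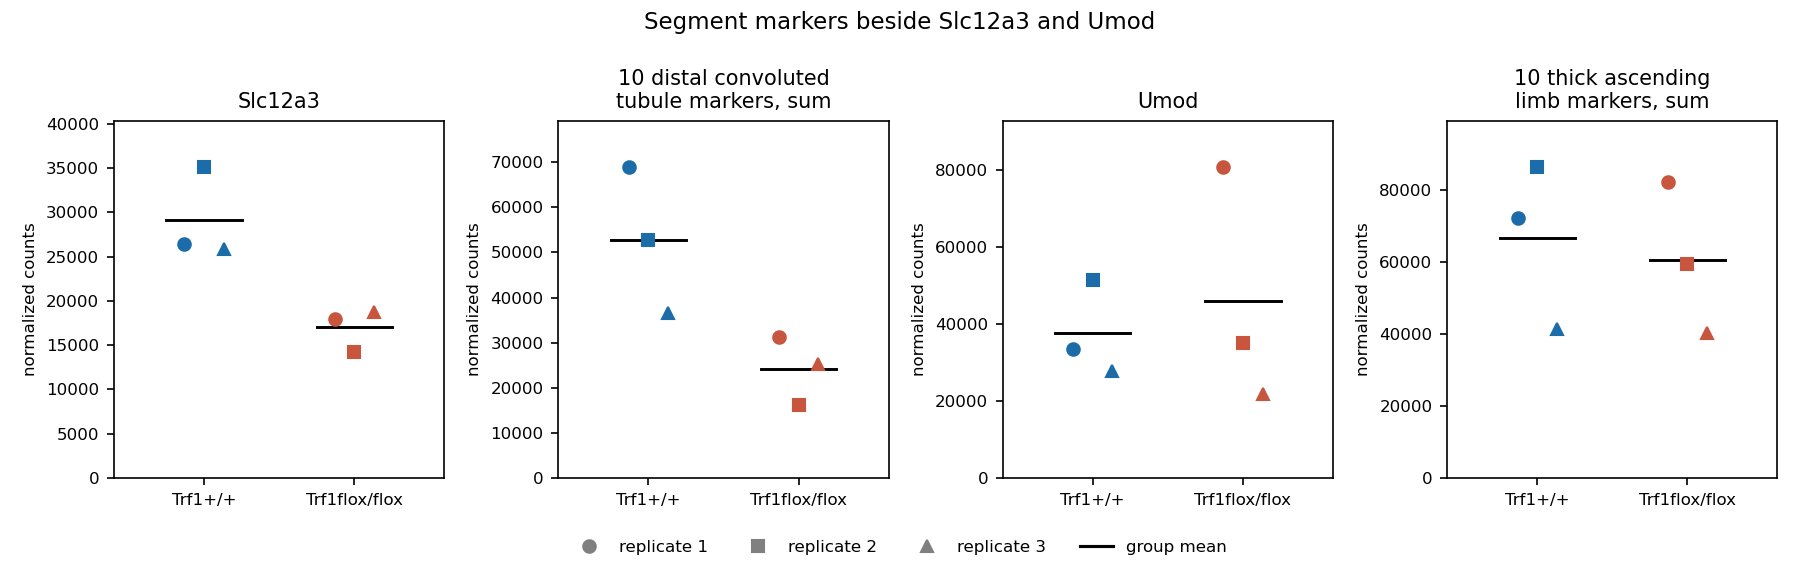
Normalized counts of Slc12a3, the sum of 10 distal convoluted tubule markers, Umod and the sum of 10 thick ascending limb markers in each library, with the shape of a point giving the replicate and the bar the group mean. The Trf1flox/flox libraries lie below the Trf1+/+ libraries for Slc12a3 and for the distal convoluted tubule sum (16117 to 31306 against 36476 to 68842), and overlap with them for Umod and the thick ascending limb sum.

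The beta and gamma subunits of ENaC were low, and each ENaC subunit was uneven across the Trf1+/+ libraries. Scnn1a, the alpha subunit (ENSMUSG00000030340, chromosome 6, 125320659 to 125344943, plus strand), had 817, 872 and 72.9 normalized counts in Trf1+/+ mice, against 735, 475 and 613 in Trf1flox/flox mice. The value of Trf1+/+ replicate 3 was low and the other 5 lay between 475 and 872. Its log2 fold change was 0.68 (SE 0.97) with all libraries and -0.50 without Trf1+/+ replicate 3. Scnn1b, the beta subunit (ENSMUSG00000030873, chromosome 7, 121865038 to 121918514, plus strand), had 0, 0.829 and 207 normalized counts in Trf1+/+ mice, against 61.0, 130.0 and 7.58 in Trf1flox/flox mice. It was highest in Trf1+/+ replicate 3, the library with the least Scnn1a. Trf1+/+ replicates 1 and 2 held 0 and 1 read, under a floor of 3 reads, which covers counting error only. Its log2 fold change of 2.51 had an SE of 2.58 and a 95% interval from -3.12 to 8.13, and its sign turned with edgeR and DESeq2. Leaving out the library labelled Trf1+/+ replicate 1 gave 1.08. Scnn1g, the gamma subunit, did not pass the filter and had 0, 2.49 and 152 against 77.3, 0 and 1.38 normalized counts.

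Principal cell markers were uneven across the libraries. Of 10 markers 8 were listed and 7 tested, 5 with a positive and 2 with a negative log2 fold change. Their summed level ran from 981 to 4062 normalized counts in Trf1+/+ and from 858 to 20795 in Trf1flox/flox libraries. Aqp2 was at 0 in 3 of the 6 libraries, namely Trf1+/+ replicates 1 and 3 and Trf1flox/flox replicate 3. Hsd11b2, the enzyme that keeps glucocorticoids off the mineralocorticoid receptor, had 617 normalized counts in Trf1flox/flox replicate 1 and at most 17.9 in the other 5. Of the intercalated cell markers all 10 were listed and 9 tested, 5 positive and 4 negative, and their sums overlapped. Slc26a4, the gene of the chloride and bicarbonate exchanger pendrin, was the 1 marker with an unadjusted p under 0.05. It had 1295, 3168 and 119 normalized counts in Trf1+/+ mice, against 0, 191 and 53.7 in Trf1flox/flox mice, and the groups overlapped (log2 difference -5.17, SE 2.03, adjusted p = 0.970 from limma).

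The partners and regulators of these transporters were taken from lists of 16 and 26 genes. Of the 42 genes 39 were listed and 35 tested, 20 with a positive and 15 with a negative log2 fold change, with a median of 0.28. None passed the adjusted threshold in limma, and 3 had an unadjusted p under 0.05, all of them lower in Trf1flox/flox mice. The groups of 5 of the 35 did not overlap, 3 lower and 2 higher, beside 3.33% and 5.35% of all tested genes.

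The 3 that lay wholly lower, Wnk1, Klhl3 and Cul3, belong to the pathway that sets NCC activity, in which WNK kinases activate the cotransporter through SPAK and a ubiquitin ligase of CUL3 and KLHL3 degrades the WNK kinases. Wnk1 had 11721, 16991 and 14346 normalized counts in Trf1+/+ mice, against 6376, 3855 and 7397 in Trf1flox/flox mice. This is a log2 fold change of -1.32 (SE 0.40, unadjusted p = 0.00645 and adjusted p = 0.970 from limma). Klhl3 had 1532, 1820 and 1698 against 1037, 886 and 783 normalized counts, a log2 difference of -0.91 (SE 0.50). Cul3 had 2928, 1128 and 619 against 421, 74.3 and 329 normalized counts, a log2 difference of -2.54 (SE 0.88). All 3 kept a negative sign in the 15 alternatives, but after upper-quartile scaling only Cul3 remained without overlap. Other genes of the pathway did not separate, and Wnk4, also counted among the distal convoluted tubule markers, differed by -0.30 on the log2 scale (SE 0.53). The third gene with an unadjusted p under 0.05 beside Wnk1 and Cul3 was Hsd11b1, whose groups overlapped.

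The 2 that lay wholly higher were low in the Trf1+/+ libraries. Sgk1, a kinase that aldosterone induces and that keeps ENaC at the membrane, had 2.67, 0.829 and 61.1 normalized counts in Trf1+/+ mice, against 140, 711 and 131 in Trf1flox/flox mice. This is a log2 fold change of 4.99 (SE 2.32, unadjusted p = 0.0531 from limma). Slc12a2, which encodes NKCC1, the widely expressed relative of NKCC2, had 2.67, 3.31 and 173 against 213, 425 and 274 normalized counts, a log2 difference of 4.38 (SE 2.13). Both had 4 reads or fewer in Trf1+/+ replicates 1 and 2, so the size of these fold changes depends on the pseudocount, the tool and Trf1+/+ replicate 3. Over the 15 alternatives it lay between 3.54 and 6.51 for Sgk1 and between 2.30 and 6.20 for Slc12a2. For both genes it was highest without Trf1+/+ replicate 3.

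The genes with profiles most like those of the 2 most abundant members were found by the root-mean-square difference of centred log2 values over the 6 libraries. For Umod they were Txndc5 at 0.13, Kcnk1 at 0.17 and B3gnt2 at 0.21. For Slc12a3 they were Zkscan3 at 0.15, Ywhaq at 0.19 and Tecr at 0.20. Kcnk1, a potassium channel gene, had 953, 1382 and 676 normalized counts in Trf1+/+ mice, against 2096, 690 and 496 in Trf1flox/flox mice, with the same highest and lowest library as Umod. Slc12a3 and Umod themselves differed by 0.73.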

How the data were processed

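RNA-seq libraries of 3 Trf1+/+ and 3 Trf1flox/flox mice were analysed, grouped by the genotype in the labels. The cells were primed at the poly(A) tail with template switching, and the kit does not mark strand. Per the submitters' processing notes and the study's methods, reads were checked with FastQC 0.11.7, aligned with TopHat2 2.0.10, Bowtie 1.0.0 and SAMtools 0.1.19, counted on GENCODE genes with HTSeq 0.6.1 and normalized with DESeq2. The methods name the build GRCm38 and the notes GRCm39, and coordinates given here are those of GENCODE vM21 on GRCm38. The deposited values are a signal, the read count of a gene divided by 1 size factor per library, as the authors made them. All values (100%) were whole multiples of 1 read within 0.01 reads, so reads were recovered. How reads that align to several places were shared is not given in the sources used here.

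Values were analysed as log2(value + 1), which understates the change of low genes, and tested with limma 3.58.1 (R 4.3.3) with a mean-variance trend over genes that reached 10 normalized counts in 3 or more libraries, with Benjamini-Hochberg adjustment at 0.05. Each library is 1 mouse per the study. Alternatives were upper-quartile scaling, pseudocounts of 0.5 and 10, no filter, edgeR 4.0.16 and DESeq2 1.42.0 on recovered reads, sample quality weights and leaving out each library. A fit without the trend, scaling to the same library total (CPM) and the TMM comparison were added after seeing the data. The fits were run on simulated data with known fold changes. Those data had less spread between libraries than the real ones, so the run does not show how the fits perform here. The members, the 13 gene lists and the tests were chosen with earlier results of these data known. Genes were named by a rule: all members, partners and regulators whose groups did not overlap (at most 6 per direction), at most 3 genes of a cell type list, the 3 genes most like each of the 2 most abundant members, and Terf1. Kcnj10, Scnn1g, Wnk4, Hsd11b1 and Gm44588 lie outside the rule and were named after their values were seen. Figures were drawn with matplotlib.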

Additional observations from a re-analysis of the deposited data

How the results depend on the processing

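Slc12a3 and Slc12a1 kept their direction in all 15 alternatives, and no member reached an adjusted p under 0.05 in any. Of the 117 values of the members under alternatives, 105 kept their direction and 12 reversed. With upper-quartile scaling Kcnj1 was 0.035 (log2 fold change). With edgeR Bsnd was -0.056 and Scnn1b -0.18, with DESeq2 Scnn1b was -0.076, and with sample quality weights Umod was -0.22 and Bsnd -0.32. The genes with an unadjusted p under 0.05 numbered 196 with edgeR, and DESeq2 called 58 genes at an adjusted p under 0.05, none of them a member. Upper-quartile scaling moved the median of all tested genes from 0.20 to 0.44, and CPM to 0.34. The causes were not tested.

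With each library left out in turn, between 136 genes (without Trf1flox/flox replicate 2) and 662 genes (without Trf1+/+ replicate 3) had an unadjusted p under 0.05, and 149 without Trf1flox/flox replicate 1. The members with a positive fold change numbered 3 to 7, with 3 without Trf1+/+ replicate 3 and 3 without Trf1flox/flox replicate 1. Scnn1b was not among the members fitted in the 2 cases with 3, so these counts are over fewer genes than the 7. The log2 fold change ranged from -0.39 to 0.55 for Umod, from -0.68 to 0.14 for Kcnj1, from -0.022 to 0.56 for Kcnj16, from -0.60 to 1.09 for Bsnd and from -0.50 to 1.29 for Scnn1a. Scnn1b failed the filter and was not fitted when Trf1+/+ replicate 3, Trf1flox/flox replicate 1 or Trf1flox/flox replicate 2 was left out. Umod was -0.069 without Trf1+/+ replicate 3. No paired analysis was possible because the replicate numbers are not in the labels and pair no mice. The floor of 3 reads covers counting error only and does not show how many molecules of the 500 cells were sampled.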
